A study of Mus musculus with 16 samples.

Results

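Collagens, laminins and the proteins that link them form the matrix outside the cell, and 60 of the 37991 gene entries in the deposited count tables belong to them. They were chosen by symbol: 43 collagen chains, 11 laminin chains, and Nid1, Nid2, Hspg2, Agrn, Fn1 and Sparc. By protein class, 23 are basement membrane chains, 11 fibrillar collagens, 9 fibril-associated (FACIT) collagens, 6 beaded filament collagens, 3 short-chain collagens, 6 transmembrane and other collagens, and 2 are the glycoproteins Fn1 and Sparc. The RNA came from cells of adult mice that were dissociated from liver or lung and sorted with a fluorescent antibody against CD31, a surface protein of endothelium. Control mice carried the Rosa-Bcat-GOF/+ allele without a Cre driver, and GOF (gain-of-function) mice carried Rosa-Bcat-GOF/+ together with VE-Cadherin-CreERT2, so all 16 libraries share the Rosa allele. VE-Cadherin is an endothelial promoter, and the design text states that GOF mice overexpress activated beta-catenin in endothelium. Controls had no Cre, so an effect of CreERT2 itself and an effect of activated beta-catenin cannot be told apart. Each of the 4 groups, control and GOF in either tissue, had 4 libraries.

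Every vessel rests on a basement membrane, a thin sheet in which a laminin network under the cells and a collagen IV network are joined by nidogens and by the proteoglycans perlecan (Hspg2) and agrin. Laminins are heterotrimers of an alpha, a beta and a gamma chain, and alpha4 and alpha5 are the alpha chains known from vascular basement membranes. Liver sinusoids are known for a sparse and discontinuous basement membrane, while in the lung capillary endothelium and alveolar epithelium share a fused one. Fibrillar collagens such as types I and III, and the beaded filaments of collagen VI, are known mainly as products of fibroblasts and related stromal cells, which makes it useful to read them beside fibroblast markers.

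The libraries held from 22820000 to 37130000 reads assigned to genes, to 4 digits. All 12 endothelial marker genes had reads in every group, and their summed level was between 12770 and 18620 CPM in the 16 libraries. CPM are reads of a gene scaled to the library total, after that total is adjusted by a TMM factor. Other cells had left RNA in the sort. The summed level of 11 fibroblast markers (such as Dcn, Lum and Pdgfra) was 71.4 to 288 CPM in liver and 501 to 2817 CPM in lung, that of 8 hepatocyte markers 657 to 3595 CPM in liver, and that of 9 alveolar epithelial markers 2325 to 16150 CPM in lung. In such bulk samples, fewer cells of a type and less RNA per cell cannot be told apart.

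Sparc and Col4a1 were the most abundant members in both tissues when levels were put per kilobase of exon, followed by Hspg2, Col4a2 and Lamb2 in liver and by Col4a2 and Lamb2 in lung. In control liver, Sparc, a secreted collagen-binding glycoprotein, had a mean of 209 ± 49.6 CPM per kilobase (SD, n = 4), followed by Col4a1 with 132 ± 15.8 and by Hspg2 with 91.7 ± 3.27. Col4a2 followed with 86.4 ± 12.9 CPM per kilobase and Lamb2, the laminin beta2 chain, with 70.02 ± 7.0. By mean ± SD, Hspg2 and Col4a2 overlapped in control liver, while Sparc and Col4a1 did not. Even so, Sparc in control library B lay within the range of Col4a1, and the order was not tested. In control lung, Sparc (195 ± 54.1 CPM per kilobase), Col4a1 (170 ± 38.8) and Col4a2 (125 ± 33.3) led, with overlapping spreads. Lamb2 followed at 76.4 ± 5.52 CPM per kilobase and agrin at 44.6 ± 6.76. Perlecan, 3rd in control liver, was 11th in control lung with 22.1 ± 5.34 CPM per kilobase. Sparc alone made up 21.3% of the members' summed per-kilobase level in control liver and 18.6% in control lung. After the filter on low counts, 49 of the 60 members could be tested in liver and 51 in lung. Col9a1 and Col19a1 had no read in any library, and of the members not described one by one the highest levels in any library were 131 CPM for Col6a5, 105 for Col4a5 and 86.4 for Col23a1.

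**Figure D1:**
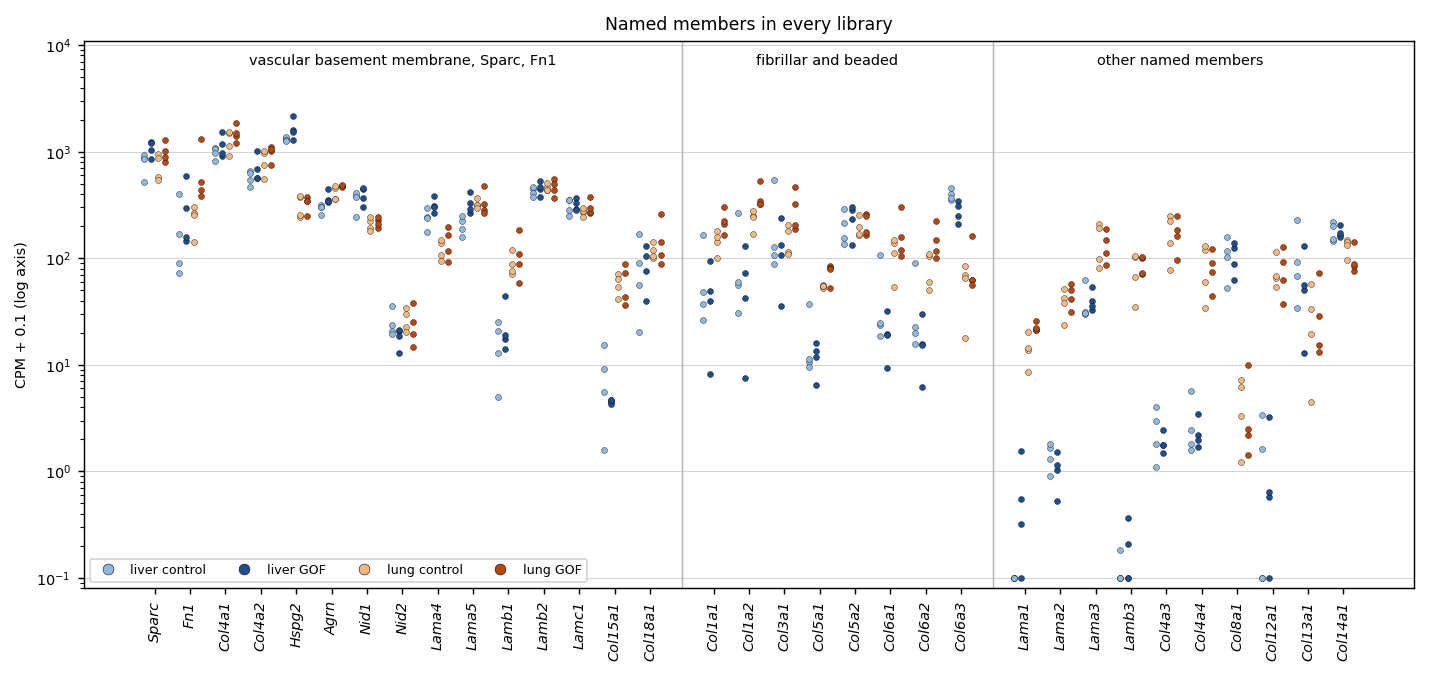
CPM of each named member (a log axis, with 0.1 added) in every library, 1 point per library, coloured by group. In liver Col4a1 and Hspg2 lie above the fibrillar collagens in every library; Lamb3, Lama1, Col4a3 and Lama2 lie low in liver and far higher in lung.

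Collagen alpha1(IV) and alpha2(IV) combine into the common collagen IV trimer of vessels. In liver, Col4a1 (ENSMUSG00000031502, chromosome 8) had 824, 1074, 1071 and 964 CPM in the control libraries B, E, F and G and 909, 1538, 968 and 1191 CPM in the GOF libraries with the same letters. In lung, it had 1143, 1488, 919 and 1523 CPM in the control libraries B, D, E and F and 1842, 1418, 1214 and 1514 CPM in the GOF libraries. The groups overlapped in both tissues. Col4a2 (ENSMUSG00000031503, chromosome 8) followed Col4a1 from library to library: the ratio of Col4a1 to Col4a2, per kilobase, was 1.53 ± 0.0541 in control liver, 1.46 ± 0.0916 in GOF liver, 1.37 ± 0.0756 in control lung and 1.35 ± 0.122 in GOF lung (mean ± SD, n = 4 each). Over the 16 libraries that ratio lay between 1.23 and 1.58.

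The 2 genes are read in opposite directions from neighbouring starts, and their promoter sequences are shown because they share bases. RefSeq places the start of Col4a1 at chr8:11312826 on the minus strand and that of Col4a2 at chr8:11312805 on the plus strand of GRCm38.p6, 21 bases apart. The windows below, from 250 bases before each start to 50 after, cover chr8:11312777-11313076 (Col4a1) and chr8:11312555-11312854 (Col4a2). The 78 bases that both windows hold (chr8:11312777-11312854) are in capitals, each read 5′ to 3′ on its own gene's strand, so that one run is the reverse complement of the other.
Col4a1: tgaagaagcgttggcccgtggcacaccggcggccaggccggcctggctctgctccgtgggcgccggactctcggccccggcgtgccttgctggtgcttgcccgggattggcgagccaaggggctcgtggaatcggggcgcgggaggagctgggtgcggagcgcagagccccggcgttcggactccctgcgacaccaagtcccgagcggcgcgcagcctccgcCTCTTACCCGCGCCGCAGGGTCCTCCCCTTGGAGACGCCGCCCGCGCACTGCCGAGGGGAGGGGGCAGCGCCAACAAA
Col4a2: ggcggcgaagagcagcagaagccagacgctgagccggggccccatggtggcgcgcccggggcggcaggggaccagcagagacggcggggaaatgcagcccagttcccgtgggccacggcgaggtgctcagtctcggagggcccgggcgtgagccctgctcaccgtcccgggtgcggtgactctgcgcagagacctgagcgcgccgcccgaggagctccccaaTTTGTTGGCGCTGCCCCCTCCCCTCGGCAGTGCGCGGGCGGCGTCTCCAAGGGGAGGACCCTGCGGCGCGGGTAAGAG
Their annotated exons overlap by 22 bases on opposite strands. No source used here states whether reads were counted by strand, so a small exchange of reads between the chains cannot be told apart, and likewise for 437 bases of Nid2 exon shared with Rtraf, 292 of Fn1 with Apol7d, 631 of Lama2 with Gm48084 and 563 of Col4a3 with C430014B12Rik.

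The comparison of the control groups asked how the matrix genes of unrecombined liver and lung endothelium differ. Control lung was higher than control liver in 17 of the 51 members tested, and lower in 7. Most of the higher ones were basement membrane chains: 14 of 23 were higher and 3 lower, with a median log2 fold change of 1.85 against -0.036 over all genes tested. Lama1 and Lamb3, with 0 and 3 reads in control liver, passed the filter on low counts only through lung. These 2 of the 14 could be called only as higher in lung. The higher chains included every collagen IV chain from alpha3 to alpha6 and the laminin chains alpha1, alpha2, alpha3, alpha5, beta1, beta3 and gamma3. Perlecan, nidogen-1 and laminin alpha4 were the basement membrane chains that were lower in lung. With edgeR's quasi-likelihood test and an adjusted p under 0.05, 24 members were called, against 24.9% of the 15806 genes tested in the same comparison (14% higher and 11% lower). DESeq2 called 27 members, against 29.2% of all genes.

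Collagen alpha3(IV) and alpha4(IV) are known to form, with alpha5(IV), the collagen IV network of alveolar and glomerular basement membranes. Col4a3 (ENSMUSG00000079465, chromosome 1) had 3.92, 1.01, 2.87 and 1.71 CPM in the control liver libraries B, E, F and G and 140.0, 247, 77.8 and 226 CPM in the control lung libraries B, D, E and F. The groups did not overlap, and lung replicate E was the lowest of its group. The log2 fold change was 6.18 ± 0.517 (SE), with an adjusted p of 1.71e-05 by edgeR. Col4a4 differed by 4.95 ± 0.567 (adjusted p = 0.00012, edgeR), from a mean of 2.78 ± 1.93 CPM in control liver to 86.2 ± 46.7 CPM in control lung (SD, n = 4). Per kilobase, Col4a3 stood at 0.0019 ± 0.00123 of the level of Col4a1 in control liver and at 0.0976 ± 0.0264 in control lung, so even in lung it was the minor chain.

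Laminin alpha3 and beta3 are chains known from epithelial basement membranes. Lamb3 (ENSMUSG00000026639, chromosome 1) had 0, 0.084, 0 and 0 CPM in the control liver libraries B, E, F and G, 3 reads in all, and 66.4, 103, 34.8 and 106 CPM in control lung. From 3 and 8716 reads, lung was 3162 times as high, with a 95% counting interval of 1082 to 15340. Lama3 differed by 1.92 ± 0.355 on the log2 scale (adjusted p = 0.0024, edgeR). Lama1, a laminin alpha chain known from embryonic and epithelial basement membranes, had no read in the 4 control liver libraries and 1625 in control lung, at least 589.5-fold higher when 3 reads in the whole group are taken as the floor. Lama2, the alpha chain of muscle and stromal laminins, differed by 4.87 ± 0.340 (adjusted p = 5.66e-06, edgeR), from 1.32 ± 0.400 to 38.6 ± 11.4 CPM. The 9 alveolar epithelial markers summed to 153 to 169 CPM in control liver, where Sftpc and Rtkn2 had no read, and to 2325 to 16150 CPM in control lung. Lung control E had the lowest sum of these markers as well as the lowest Col4a3, Col4a4 and Lamb3 of its group. The part of epithelial RNA in these differences was not tested.

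The chains that both tissues used differed in their proportions. Laminin alpha5 exceeded alpha4 in every lung library and lay near it in liver: per kilobase, the ratio of Lama5 to Lama4 lay between 1.71 and 3.30 in the 8 lung libraries and between 0.565 and 1.16 in the 8 liver libraries. Its mean was 0.939 ± 0.256 in control liver and 1.09 ± 0.118 in GOF liver (SD, n = 4 each). Lama4 was lower in control lung by 0.96 ± 0.200 on the log2 scale (adjusted p = 0.005, edgeR) and Lama5 higher by 0.67 ± 0.170 (adjusted p = 0.0146, edgeR). Lamb1, the laminin beta1 chain, rose from 15.9 ± 8.99 to 88.2 ± 22.1 CPM (log2 fold change 2.47 ± 0.426, adjusted p = 0.00158, edgeR), so that the ratio of Lamb2 to Lamb1 lay between 19.3 and 138 in liver and between 3.30 and 12.1 in lung. Nidogen-1 fell by 0.75 on the log2 scale in lung (log2 fold change -0.75 ± 0.188, adjusted p = 0.0132, edgeR). Hspg2 (ENSMUSG00000028763, chromosome 4) had 1335, 1364, 1289 and 1259 CPM in the control liver libraries and 246, 377, 255 and 387 CPM in control lung. The groups were far apart, with a log2 fold change of -2.05 ± 0.190 (adjusted p = 3.06e-05, edgeR). Col15a1, a basement membrane collagen with an endostatin-like end, was 2.90 ± 0.542 higher in lung (adjusted p = 0.00259, edgeR).

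**Figure D2:**
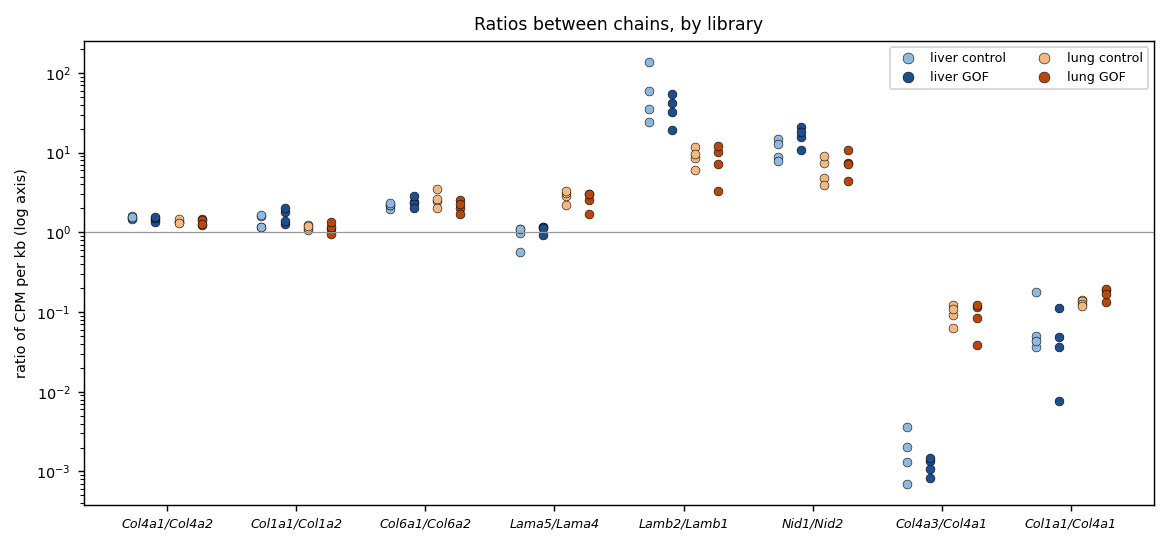
Ratio of the CPM per kilobase of pairs of chains (a log axis), 1 point per library, coloured by group; the line marks equal levels. Col4a1/Col4a2 stays between 1.23 and 1.58 in all 16 libraries, while Lama5/Lama4, Lamb2/Lamb1 and Col4a3/Col4a1 separate the liver libraries from the lung libraries.

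Outside the basement membrane class, 7 of 28 members tested were called between the control tissues (25.0%), near the 24.9% of all genes, against 17 of 23 basement membrane chains (73.9%). The 17 include Lama1 and Lamb3, which passed the filter on low counts only through lung. Likewise, the 7 include Col12a1, which passed it only through lung, and Col6a5, which passed it only through liver. The difference between the classes was not tested. Among 9 fibrillar collagens tested, 1 was higher in lung (Col5a1, 1.67 ± 0.408, adjusted p = 0.0117, edgeR) and 1 lower. The collagen I and III chains did not pass the test: Col1a1 had a log2 fold change of 1.07 ± 0.499 (adjusted p = 0.154), Col1a2 1.19 ± 0.562 (adjusted p = 0.16) and Col3a1 -0.50 ± 0.527 (adjusted p = 0.552), all by edgeR. Col12a1, a FACIT collagen, had 0, 0, 1.53 and 3.29 CPM in control liver B, E, F and G. In control lung B, D, E and F it had 65.6, 68.75, 53.3 and 114.5 CPM. It passed the filter on low counts only through lung, so it could be called only as higher there (6.02 ± 1.06, adjusted p = 0.00178, edgeR). Col8a1 (ENSMUSG00000068196, chromosome 16), a short-chain collagen of vessel walls, had 102, 52.5, 159.8 and 118 CPM in control liver and 1.116, 3.24, 7.08 and 6.11 CPM in control lung. The groups did not overlap, and it was lower in lung by 4.61 (log2 fold change -4.61 ± 0.543, adjusted p = 0.000146, edgeR). Col6a3, the long chain of collagen VI, was lower in lung with a log2 fold change of -2.73 ± 0.389 (adjusted p = 0.000503, edgeR), whereas its partners had positive values that did not pass, 1.40 ± 0.549 for Col6a1 (adjusted p = 0.0927) and 1.13 ± 0.531 for Col6a2 (adjusted p = 0.155).

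**Figure D3:**
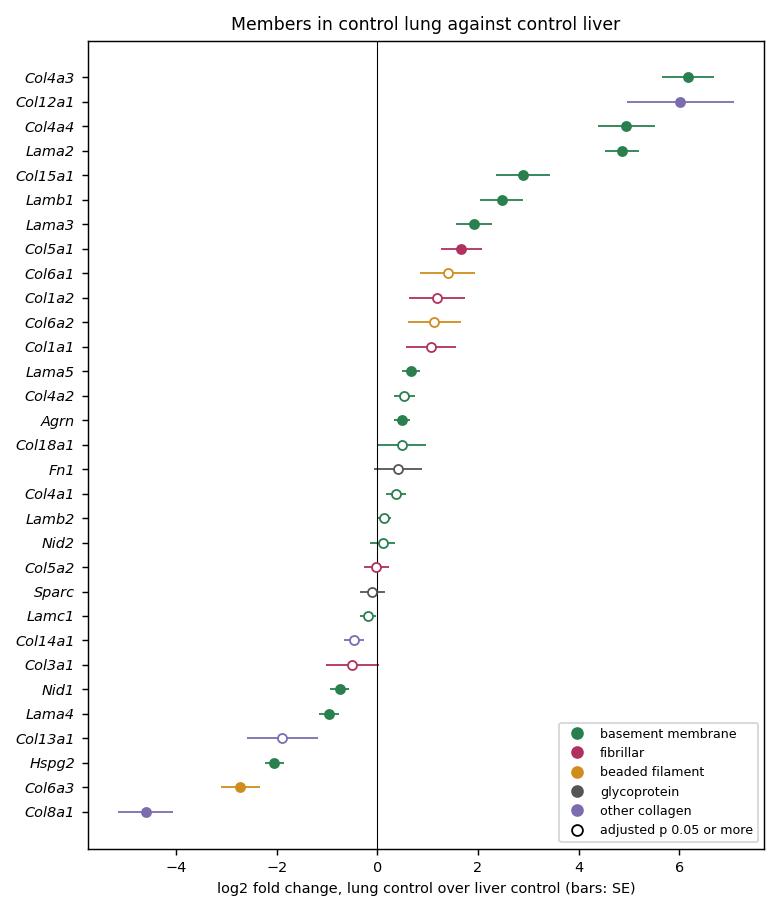
Log2 fold change of control lung over control liver for the members named here with more than 3 reads in both groups (bars: SE of the edgeR fit), coloured by class; open points had an adjusted p of 0.05 or more. Basement membrane chains fill the upper end, Lama2 at 4.87 and Col4a3 at 6.18 among them; Lamb3 and Lama1, with 3 and 0 reads in control liver, are not drawn.

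Of the 24 calls, those of agrin, Col27a1 and Col6a5 depended on single libraries, and nidogen-1 lost its call without 1 library; Col27a1 and Col6a5 are named after their values were seen. The log2 fold change of agrin was 0.49 ± 0.154 (adjusted p = 0.0387, edgeR), and the adjusted p rose to between 0.072 and 0.109 without liver control E, F or G or lung control D or F. Col27a1, the fibrillar collagen called lower in lung (-1.26 ± 0.401, adjusted p = 0.0419, edgeR), kept its call in 2 of the 8 fits that left out a library, with an adjusted p of up to 0.102 without liver control F. Col6a5, a beaded filament collagen called lower (-4.61 ± 1.47, adjusted p = 0.0424, edgeR), kept its call in 3 of the 8, with an adjusted p of up to 0.199 without liver control F. The adjusted p of nidogen-1 rose to 0.0555 without liver control F. With a block on the replicate letters that the tissues share (B, E and F), 17 members were called against 13.2% of all genes, and Agrn (adjusted p = 0.283), Lama5 (0.0798), Lama4 (0.0731), Nid1 (0.111), Col27a1 (0.0582) and Col6a5 (0.508) were among those no longer called by edgeR.

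Genes that process or bind this matrix were counted in the same way, beside the 14% of all genes called higher in lung and the 11% called lower. Of 29 collagen-processing genes, 9 were higher in lung and 8 lower. Pcolce2, an enhancer of procollagen C-proteinase, was 6.75 ± 0.648 higher on the log2 scale, and Leprel1, a prolyl 3-hydroxylase of collagen IV, had a log2 fold change of -2.13 ± 0.221. Of 18 matrix receptors, 11 were higher in lung and none lower, among them Itgb5 (4.63 ± 0.209), Itga3 (2.52 ± 0.251), Itga6 (1.49 ± 0.239) and Itgb4 (1.82 ± 0.316), integrin chains of which alpha3, alpha6 and beta4 are known to bind laminins. Of 17 further basement membrane proteins, 7 were higher, led by Egflam (pikachurin; 6.01 ± 0.333), and 2 lower, Ntn4 (-1.53 ± 0.133) and Tinagl1 (-1.03 ± 0.186). The highest adjusted p among those named is 0.00205 (Tinagl1, edgeR).

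In liver, activated beta-catenin was compared with control to ask whether Wnt signalling alters endothelial genes, and the members showed small differences that depended on how libraries were paired. Without pairing, edgeR called 0 of 49 members tested, against 0.0321% of 15555 genes, with 4 members at an unadjusted p under 0.05 (6.49% of all genes), and DESeq2 also called 0 (0.964% of all genes). Libraries with the same replicate letter deviated together, and with that letter as a block edgeR called 3 members, against 2.58% of all genes: Lama5 and Sparc rose (1.54% of all genes were called higher) and Col13a1 fell (1.04% were called lower). The median log2 fold change over the 49 members without the block was -0.18, against -0.0022 over all genes, with 21 of 49 above 0. Basement membrane chains had positive values in 13 of 21 (median 0.082), fibrillar collagens in 2 of 9 (median -0.54) and beaded filament collagens in 0 of 5 (median -1.08).

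Lama5 (ENSMUSG00000015647, chromosome 2) encodes laminin alpha5, the alpha chain of laminin-511. It had 187, 157, 226 and 247 CPM in the control libraries B, E, F and G, and 266, 416, 291 and 332 CPM in the GOF libraries with those letters. Every GOF library was above every control library, and the mean went from 204 ± 40.1 to 326 ± 65.4 CPM (SD, n = 4). The paired log2 fold change was 0.68 ± 0.15 (SE; adjusted p = 0.0387, edgeR with block), and it was 0.68 ± 0.190 without the block (adjusted p = 0.379). The authors' deposited table lists 0.58 for this gene with an adjusted p of 0.0883 in their own comparison. For the other 2 members called, that comparison lists 0.39 for Sparc (adjusted p = 0.616) and -0.21 for Col13a1 (adjusted p = 0.981).

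Sparc (ENSMUSG00000018593, chromosome 11) had 516, 870.4, 934 and 848 CPM in the control libraries B, E, F and G and 861, 1239, 1031 and 1199 CPM in the GOF libraries. It was higher in GOF in 4 of 4 pairs, though GOF B lay within the control range. The paired log2 fold change was 0.48 ± 0.0992 (adjusted p = 0.029, edgeR with block; 0.46 ± 0.211 and adjusted p = 0.774 without it). Col13a1 (ENSMUSG00000058806, chromosome 10), a transmembrane collagen of cell adhesion sites, had 34.4, 229.8, 93.0 and 67.8 CPM in control B, E, F and G and 12.8, 129, 50.2 and 55.9 CPM in GOF. Its level varied more between letters than between genotypes, with both E libraries highest, and it was lower in GOF in 4 of 4 pairs. The paired log2 fold change was -0.84 ± 0.151 (adjusted p = 0.0139, edgeR with block; -0.77 ± 0.655 and adjusted p = 0.919 without it). Summed sinusoidal endothelial markers, also highest in the E libraries, ranged from 4247 to 9877 CPM in control and from 2918 to 9477 CPM in GOF and were lower in GOF in 3 of 4 pairs. With the block, edgeR called 2 of the 7 sinusoidal markers lower, against 1.04% of all genes. The part of these markers in the Col13a1 difference was not tested.

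Each of these 3 calls was lost when some pairs were left out. The adjusted p of Lama5 was 0.0649 without pair B and 0.0706 without pair E, that of Sparc 0.0786, 0.108 and 0.0703 without pairs B, E and G, and that of Col13a1 0.0763 and 0.0558 without pairs E and F (edgeR with block). Without pair E, Col6a2 (adjusted p = 0.0271) and Col6a3 (0.0212) were called instead, and without pair G Col18a1 was (0.0338). DESeq2 with the block called 9 members, against 6.11% of all genes: Agrn, Lama4, Lama5, Sparc, Col9a2, Col23a1, Col13a1, Col6a2 and Col6a3. Of these, Col9a2 had 0, 0, 0.463 and 0 CPM in control B, E, F and G and 1.25, 0.573, 0.357 and 1.42 CPM in GOF. It passed the filter on low counts only through GOF, so it could be called only as higher.

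The promoters of Lama5 and Col13a1 are shown as the basement membrane chain that rose and the collagen that fell. TCF/LEF proteins, the partners of beta-catenin on DNA, are known to bind words such as CTTTGAA and CTTTGAT. Capitals mark 4 copies of GGGCGG or its reverse complement in the Lama5 window (chr2:180225810-180226109, minus strand) and 1 TTCAAAG, the reverse complement of CTTTGAA, 215 bases before the start in the Col13a1 window (chr10:61979059-61979358, minus strand), in RefSeq sequence of GRCm38.p6.
Lama5: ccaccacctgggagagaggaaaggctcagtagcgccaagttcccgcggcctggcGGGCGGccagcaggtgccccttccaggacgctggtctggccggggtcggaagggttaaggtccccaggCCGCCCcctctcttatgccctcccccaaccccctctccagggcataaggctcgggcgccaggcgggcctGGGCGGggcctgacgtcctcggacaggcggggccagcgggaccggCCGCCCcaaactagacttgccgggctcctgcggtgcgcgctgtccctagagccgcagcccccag
Col13a1: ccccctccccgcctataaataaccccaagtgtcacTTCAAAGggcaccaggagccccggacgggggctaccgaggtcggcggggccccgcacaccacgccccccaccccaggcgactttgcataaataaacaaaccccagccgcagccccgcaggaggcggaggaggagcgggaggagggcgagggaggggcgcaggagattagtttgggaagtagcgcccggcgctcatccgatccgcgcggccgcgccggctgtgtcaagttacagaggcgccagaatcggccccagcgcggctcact
RefSeq windows were found for 44 members, 49 windows in all. Either TCF/LEF word, searched on both strands, was in 5 of the 49 (10.2%) and in 8.65% of 32851 windows over all genes, and GGGCGG was in 30 of the 49 (61.2%) and in 35.7% of all. The member windows were richer in G and C, with a median of 60.0% against 52.7%. The Lama5 and Sparc windows held neither TCF/LEF word.

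**Figure D4:**
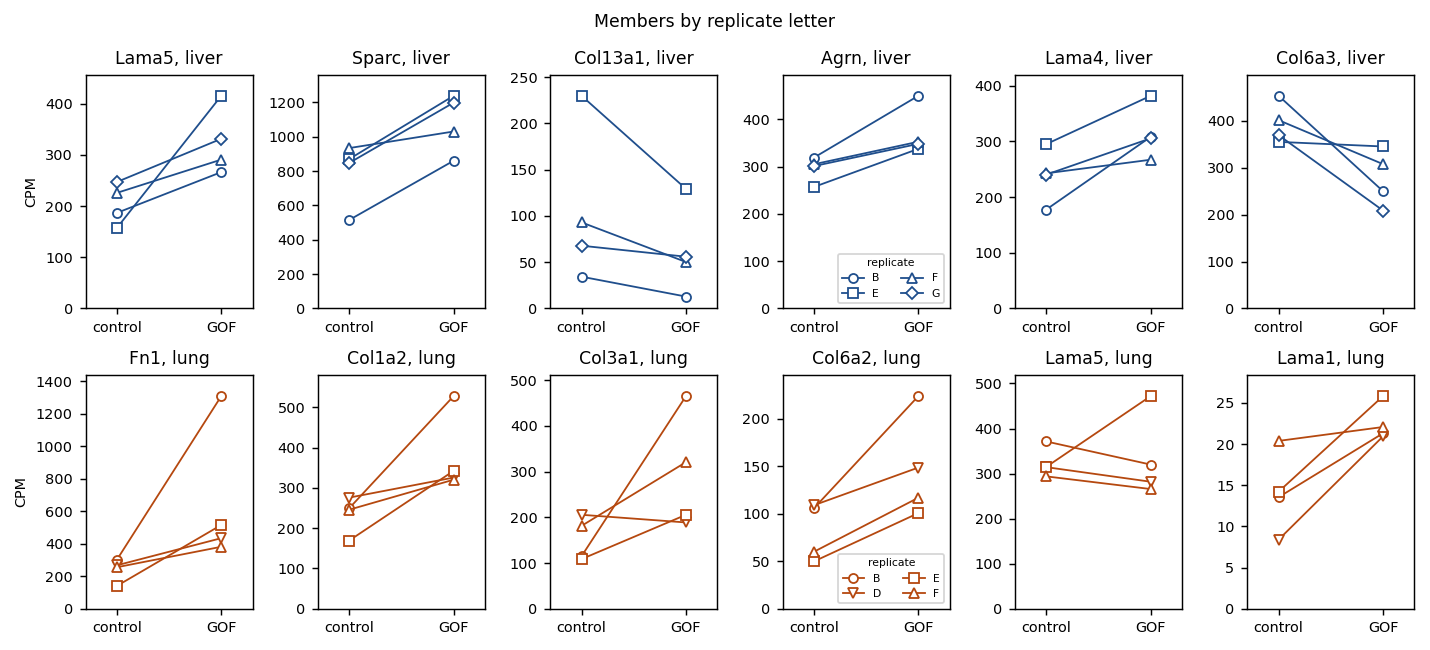
CPM of 6 members in liver (top: Lama5, Sparc, Col13a1, Agrn, Lama4 and Col6a3) and 6 in lung (bottom: Fn1, Col1a2, Col3a1, Col6a2, Lama5 and Lama1), control beside GOF, each line joining the libraries of 1 replicate letter; vertical axes start at 0. In liver the lines of Lama5, Sparc, Agrn and Lama4 go up and those of Col13a1 and Col6a3 go down in 4 of 4 pairs. In lung those of Fn1, Col1a2, Col6a2 and Lama1 go up in 4 of 4, and those of Col3a1 and Lama5 do not.

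The other chains of the vascular basement membrane in liver had smaller values, none of which passed with or without the block by edgeR. Agrin, a proteoglycan that binds laminins, had 319, 257, 305 and 301 CPM in control B, E, F and G and 449.5, 337, 352 and 348 CPM in GOF, so that the groups did not overlap (paired log2 fold change 0.33 ± 0.086, adjusted p = 0.0702). Laminin alpha4, the alpha chain of laminin-411, had 178, 295, 243 and 240 CPM in control and 308, 382, 267 and 305 CPM in GOF, higher in 4 of 4 pairs (0.42 ± 0.107, adjusted p = 0.0684). The paired log2 fold changes were 0.31 ± 0.102 for Hspg2, 0.21 ± 0.104 for Col4a1, 0.28 ± 0.114 for Col4a2, 0.16 ± 0.0954 for Nid1, 0.096 ± 0.0819 for Lamb2 and 0.044 ± 0.0835 for Lamc1. Lamb1 had 0.65 ± 0.307 and Col18a1, a basement membrane collagen that yields endostatin, 0.33 ± 0.205. Nid2 (-0.41 ± 0.207) and Col15a1 (-0.43 ± 0.487) had values below 0. Fibronectin (Fn1), a glycoprotein of plasma and provisional matrix, spread widely, with 91.0, 72.6, 399 and 167 CPM in control and 586, 147, 296 and 159 CPM in GOF (paired log2 fold change 0.76 ± 0.392, adjusted p = 0.397).

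Fibrillar and beaded filament collagens in liver had mostly lower means in GOF, and so did markers of fibroblasts. Col6a3 had 454, 355, 402 and 370 CPM in control B, E, F and G and 250, 346, 308 and 209 CPM in GOF. The groups did not overlap, and the paired log2 fold change was -0.52 ± 0.128 (adjusted p = 0.0581, edgeR). Col6a2 (ENSMUSG00000020241, chromosome 10) had 22.5, 15.7, 90.6 and 19.8 CPM in control and 15.6, 15.4, 29.8 and 6.05 CPM in GOF, with control F far above the others (-0.96 ± 0.259, adjusted p = 0.0797, paired). Col3a1 had 88.8, 129, 539.5 and 108 CPM in control and 108, 134, 238 and 35.3 CPM in GOF. Its log2 fold change without the block was -0.75 ± 0.640 (adjusted p = 0.92, edgeR), and without control F it was 0.25. The summed fibroblast markers were 114 to 288 CPM in control, highest in control F, and 71.4 to 161 CPM in GOF, lower in 4 of 4 pairs, with 10 of 11 markers lower in their mean and all 11 with reads in both groups. Stellate cell markers (7 of 8 lower, 401 to 584 against 322 to 453 CPM) and hepatocyte markers (8 of 8 lower, 755 to 3595 against 657 to 1646 CPM) were likewise mostly lower. Cholangiocyte markers (5 of 5 lower, 20.8 to 158 against 13.9 to 72.8 CPM) had a lower sum in GOF in 4 of 4 pairs. Alveolar epithelial markers had a higher sum in 4 of 4 (153 to 169 against 168 to 192 CPM), though 5 of 9 had a lower mean in GOF. Without the block, edgeR called no gene of these marker lists. With it, 1 of 10 fibroblast, 2 of 8 hepatocyte, 1 of 5 cholangiocyte and 1 of 6 mesothelial markers tested were called lower. One direction was not shared by all lists, as 1 of 9 mural markers was called higher. Over all genes, 1.04% were called lower and 1.54% higher. The part of these markers in the collagen values was not tested.

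Of the other matrix genes in liver, none passed without the block by edgeR. The counts below, with the block, stand beside 2.58% of all genes called (1.54% higher and 1.04% lower). Lox rose, from 42.9, 29.8, 46.6 and 47.4 CPM in control B, E, F and G to 70.02, 60.0, 98.2 and 76.2 CPM in GOF. Lox encodes lysyl oxidase, which crosslinks collagen and elastin, and its groups did not overlap (0.88 ± 0.112, adjusted p = 0.00202, edgeR with block). Loxl1, a relative that crosslinks elastin, fell in 4 of 4 pairs (-1.61 ± 0.300, adjusted p = 0.0164, edgeR with block). They were the 2 of 29 processing genes called, and without the block DESeq2 called 1 processing gene and 1 receptor, against 0.964% of all genes. Among 18 receptors, 2 rose, which pair as the laminin receptor alpha6beta4: Itga6, from 126 ± 21.5 to 211 ± 38.6 CPM (0.74 ± 0.0815, adjusted p = 0.000919), and Itgb4, from 39.2 ± 15.1 to 65.8 ± 19.6 CPM (0.80 ± 0.135, adjusted p = 0.00963), both by edgeR with block. Of 14 further basement membrane proteins tested, 1 rose, hemicentin-1 (Hmcn1, 0.66 ± 0.131, adjusted p = 0.0243), and 2 fell, netrin-1 (Ntn1, -0.64 ± 0.0926, adjusted p = 0.00438) and Smoc1, which binds calcium (-0.89 ± 0.151, adjusted p = 0.0102), by edgeR with block.

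In lung, the same question gave no call among the members with edgeR: 0 of 51 without the block, against 0% of 15641 genes, and 0 with it, against 0.0192%. At an unadjusted p under 0.05 there were 8 members without the block, against 2.18% of all genes, and 13 with it, against 6.1%. In 39 of 51 members the log2 fold change was above 0, with a median of 0.18 against 0.00629 over all genes. By class median, the values lay highest for the 2 glycoproteins Fn1 and Sparc (2 of 2 above 0, median 0.95). Beaded filament collagens (5 of 5, median 0.86) and fibrillar collagens (6 of 9, median 0.45) followed. Basement membrane chains lay near 0 (19 of 23 above 0, median 0.076).

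Fibronectin had the lowest unadjusted p of the named members without the block, with 301, 268, 141 and 256 CPM in control B, D, E and F and 1310, 435, 516 and 382 CPM in GOF. Every GOF library was above every control library, with GOF B far above the rest, and the log2 fold change was 1.46 ± 0.374 (adjusted p = 0.9998, or 0.149 with the block, edgeR). Without pair F, Fn1 was called with the block (adjusted p = 0.0402), and over all left-out libraries and pairs its log2 fold change lay between 0.88 and 1.65. Col1a2, a chain of collagen I, had 249.6, 276, 169 and 246 CPM in control and 528, 326, 342 and 321 CPM in GOF, with no overlap (0.70 ± 0.209, adjusted p = 0.233 with the block). Col6a2 had 106, 109, 49.9 and 60.1 CPM in control and 224, 149, 101 and 117 CPM in GOF, higher in 4 of 4 pairs (paired 0.88 ± 0.132, adjusted p = 0.0611, edgeR). Col1a1 and Col3a1 had log2 fold changes of 0.65 ± 0.218 and 0.96 ± 0.301 without the block, neither past the threshold.

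Basement membrane chains of lung had no call with edgeR. Lama5 had 371, 314, 315 and 294 CPM in control B, D, E and F and 320, 282, 472 and 266 CPM in GOF, with overlapping groups (0.054 ± 0.193). Lama1 had 13.6, 8.40, 14.2 and 20.4 CPM in control and 21.3, 20.9, 25.8 and 22.1 CPM in GOF, with no overlap (0.67 ± 0.268, unadjusted p = 0.0271, adjusted p = 0.9998, edgeR). Sparc had 579, 957, 547 and 868 CPM in control and 1284, 809, 882 and 1010 CPM in GOF (paired 0.46 ± 0.175, adjusted p = 0.767, edgeR). The collagen IV chains had paired values of 0.26 ± 0.123 (Col4a1) and 0.28 ± 0.109 (Col4a2). DESeq2 called 1 member without the block, against 0.0703% of all genes: Col28a1, named after its values were seen. Col28a1 had 1 read in the control libraries and 136 in GOF, a ratio of 128 with a 95% counting interval of 22.7 to 5110. It passed the filter on low counts only through GOF, so it could be called only as higher. With the block DESeq2 called Col1a2, Col28a1 and Col6a2, 3 members against 0.748%. None of the 29 processing genes, 18 receptors and 17 further basement membrane proteins was called in lung by edgeR, with or without the block, or by DESeq2 without it.

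No gene of the marker lists of other cells passed the test between genotypes in lung, with or without the block by edgeR, and some of their sums had the same direction in every pair. The fibroblast sum was 501 to 1383 CPM in control and 702 to 2817 CPM in GOF, highest in GOF B, and higher in GOF in 2 of 4 pairs, with 10 of 11 markers higher in their mean. The 8 markers of the stellate list, which other stromal cells also express, summed to 263 to 381 CPM in control and 330 to 436 CPM in GOF. That sum was higher in 4 of 4 pairs, with 5 of 8 markers higher in their mean. The 5 leukocyte markers (4 of 5 higher) summed to 3.88 to 45.3 CPM in control and 38.5 to 53.8 CPM in GOF, also higher in 4 of 4 pairs. The 5 lung capillary endothelial markers (4 of 5 lower, 3147 to 5775 against 3017 to 5647 CPM) had a lower sum in GOF in 4 of 4 pairs. So did the 7 sinusoidal endothelial markers (1945 to 2643 against 1656 to 2461 CPM), though 4 of 7 had a higher mean in GOF. Alveolar epithelial markers ranged from 2325 to 16150 CPM in control and from 3350 to 14250 CPM in GOF. Their part in the values of the members was not tested.

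The difference between the GOF effects of lung and liver was tested directly, as an interaction. Without the block, edgeR called 0 of 55 members, against 0.0057% of 17536 genes, with 5 at an unadjusted p under 0.05 (5.73% of all genes), and DESeq2 called Lama1 (0.251% of all genes). With the block, edgeR called 2, Col6a2 and Lama1, against 0.49%, and DESeq2 called 3, those 2 and Col6a1, against 2.21%. Col6a2, which encodes the alpha2 chain of collagen VI, was lower in GOF in 4 of 4 liver pairs and higher in 4 of 4 lung pairs, with a difference of 1.85 ± 0.325 on the log2 scale (adjusted p = 0.0274, edgeR with block). That call was lost without lung pair B (adjusted p = 0.0642) or F (0.057). All 6 beaded filament collagens tested had a difference above 0, with a median of 1.97 without the block. The fibroblast sum was lower in GOF in 4 of 4 liver pairs and higher in 2 of 4 lung pairs, and its part in the difference was not tested.

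Lama1 (ENSMUSG00000032796, chromosome 17) was called with a difference below 0 (adjusted p = 0.0242, edgeR with block), though it was higher in GOF in 4 of 4 lung pairs. Lama1 passed the filter on low counts only through lung, and with 0 reads in liver control its liver effect could not be downward. In liver it had 0 CPM in the 4 control libraries and 0.224, 0, 1.47 and 0.455 CPM in GOF B, E, F and G. These were 0 and 61 reads, a level at least 20.8-fold higher in GOF taking 3 reads in the whole group as the floor, and GOF F held most of them. Without liver pair F the adjusted p was 0.119. Loxl1 fell in liver as above and had 41.9, 61.6, 25.6 and 33.0 CPM in lung control B, D, E and F and 102, 64.4, 64.8 and 64.6 CPM in lung GOF, and its difference between tissues was 2.52 ± 0.346 (adjusted p = 0.00747, edgeR with block). Itgb4, higher in GOF in liver, was lower in 4 of 4 lung pairs, and its difference was -0.98 ± 0.171 (adjusted p = 0.0249, edgeR with block). For Lama5, the tissues differed by -0.66 ± 0.237 with the block, which did not pass (adjusted p = 0.309).

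To set basement membrane chains apart from collagens that fibroblasts may have carried in, each member was compared across the 8 libraries of a tissue with the summed fibroblast markers, on log2 scales. No member of 49 in liver or of 51 in lung passed an adjusted p of 0.05 in exact two-sided permutation tests, where 10 and 11 had an unadjusted p under 0.05. Only members were compared in this way, so the share of all genes with such a p or a positive r is not known. These counts therefore cannot be read as particular to the members or their classes. In liver, all 5 beaded filament collagens had a positive Pearson r, with a median of 0.82, and 8 of 9 fibrillar collagens, with a median of 0.54, while basement membrane chains were split, 11 of 21 positive with a median of 0.070. In lung, the medians were 0.79, 0.53 and 0.23 in the same order, and 16 of 23 basement membrane chains had a positive r. Libraries that share a letter deviate together, so the 8 points are not fully independent. With the mean of each letter removed, the medians in liver were 0.86 for beaded filament collagens, 0.59 for fibrillar collagens and 0.032 for basement membrane chains. In lung they were 0.64, 0.68 and 0.74, and 21 of 23 basement membrane chains had a positive r, so the classes no longer stood apart there. Lung chains with r near the top after that step were Col4a1 (0.95), Agrn (0.933), Col4a2 (0.927), Nid1 (0.927) and Lamc1 (0.890), given as a description of 4 pairs.

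Col6a2 stood highest in liver, with r = 0.901 and Spearman's rho = 0.905 (exact permutation p = 0.00186 and 0.00456, adjusted 0.0541 and 0.112), and r was 0.709 without the 2 libraries farthest from the median sum, control F and GOF G. For Col1a1, Col1a2 and Col3a1 the relation in liver rested on those 2 libraries. The r of Col1a1 went from 0.694 (exact permutation p = 0.0523, adjusted 0.208; rho 0.381, p = 0.36, adjusted 0.569) to -0.267 without them. That of Col1a2 went from 0.733 (p = 0.0368, adjusted 0.208; rho 0.524, p = 0.197, adjusted 0.482, exact permutation) to -0.106. That of Col3a1 went from 0.741 (p = 0.0311, adjusted 0.208; rho 0.476, p = 0.243, adjusted 0.518, exact permutation) to -0.149. Laminin alpha4 went the other way, with r = -0.689 and rho = -0.833 (exact permutation p = 0.0552 and 0.0154, adjusted 0.208 and 0.188) and r = -0.866 without those libraries.

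In lung, the chains nearest to the fibroblast sum were Col6a1 and Lamb1. Lamb1, a basement membrane chain that fibroblasts are also known to make, had r = 0.920 and rho = 0.952 (exact permutation p = 0.00191 and 0.00114, adjusted 0.0738 and 0.0582), and r = 0.893 without GOF B and control E. Col6a1 had r = 0.931 and rho = 0.833 (exact permutation p = 0.00407 and 0.0154, adjusted 0.0738 and 0.131), and 0.618 without them. For fibronectin, r fell from 0.826 (rho 0.571; exact permutation p = 0.022 and 0.151, adjusted 0.169 and 0.636) to -0.221 without them, so the relation rested on those 2 libraries. Lama5 had r = 0.230 and rho = 0.548 (exact permutation p = 0.543 and 0.171, adjusted 0.728 and 0.636).

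**Figure D5:**
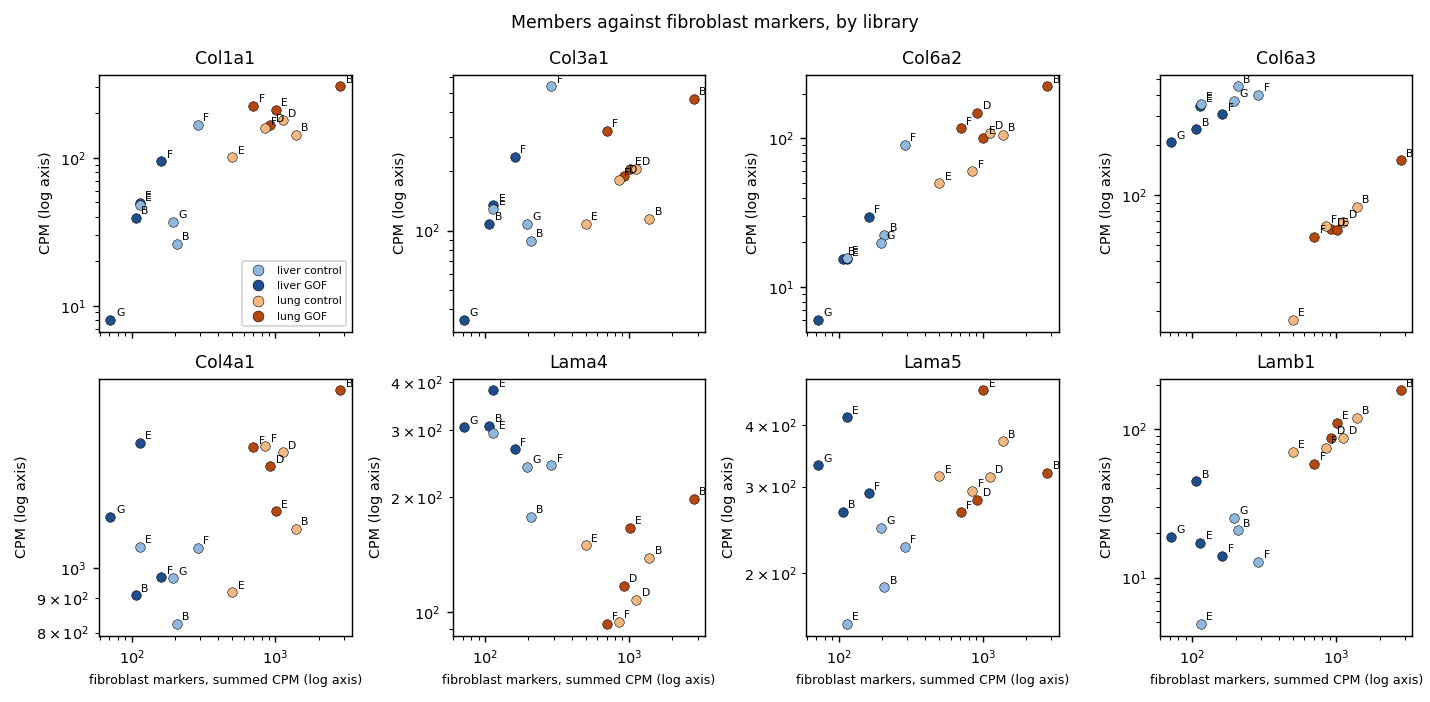
CPM of members against the summed CPM of 11 fibroblast markers (both axes logarithmic), 1 point per library, coloured by group. Among the liver libraries Col6a2 goes up with the markers, and Lama5 and Col4a1 do not line up with them in liver.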

How the data were processed

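RNA of sorted cells from 16 mouse samples was sequenced, and the labels name TruSeq RNA V2 libraries read as pairs on a HiSeq4000. Per the submitters' processing notes, the tools were HTSeq 0.6.1, DESeq2, TopHat2 2.0.11 with Bowtie2 2.2.1, and SAMtools 0.1.19, on mm9. The counted annotation and the use of strand are not stated in them, nor in the labels. The authors deposited raw counts per gene for each library, and per the file headers a table per tissue with log2 fold changes and adjusted p-values of their own comparison. A further 16 deposited columns of CPM were not used.

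Levels are CPM with TMM factors over the 16 libraries, and levels per kilobase use the union of exons in GENCODE M21 (GRCm38). No coordinates were taken from the mm9 files. Tests used edgeR 4.0.16 (limma 3.58.1, R 4.3.3) on all genes, with the quasi-likelihood test, TMM scaling, filterByExpr (minimum count 10, minimum total 15), Benjamini-Hochberg adjustment over all genes tested, a threshold of 0.05 and a prior count of 0.125. DESeq2 1.42.0, other scalings, no filter, left-out libraries and the replicate block were alternatives. The SE is the log2 fold change divided by the root of its F statistic. The steps were tested on simulated data. Libraries of 1 tissue with the same letter in their titles deviated together: correlations of deviations from group means were 0.171 to 0.290 over 15555 genes in liver and 0.110 to 0.188 over 15641 in lung, and at most 0.0334 between other letters. The labels do not say what a letter stands for, and samples are called biological, so p-values measure the spread between these libraries. Fibroblast relations used log2 of CPM plus 0.5.

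Members and lists were chosen with earlier results of these data known. Named members are the vascular basement membrane chains, Sparc, Fn1, the chains of collagens I, III, V and VI (alpha1 to alpha3), members past the threshold between genotypes with or without the block, and the 6 with the largest tissue difference (at least 50 reads in the higher group) and the 6 with the highest level among the rest. The count tables hold 3750 entries that share a symbol with another, none of them a member. Emid2, an older symbol of Col26a1, was not matched by the rule. Intervals and floors cover counting error only. 1 member is not reported here by name.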

Additional observations from a re-analysis of the deposited data

Results flagged for a closer look

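Some libraries stood far from the other 3 of their group. The gap of the highest or lowest of 4 libraries was compared with Dixon's 95% critical value in 133 groups of member levels, of which chance alone marks about 1 in 20, and 14 were marked. Liver control F was far above its group for 6 fibrillar and collagen VI chains: Col1a1 at 166 CPM, Col1a2 at 269, Col3a1 at 539.5, Col5a1 at 37.4, Col6a1 at 106 and Col6a2 at 90.6. Its fibroblast marker sum, 288 CPM, was also the highest of the liver libraries. Lung GOF B was far above its group for Fn1 (1310.0 CPM), Col1a2 (528 CPM) and Col6a3 (162 CPM), and its fibroblast marker sum, 2817 CPM, was the highest of the lung libraries. The part of fibroblast RNA in these values was not tested.

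In liver GOF B, Lamb1 was at 44.5 CPM, Agrn at 449.5 CPM and Col12a1 at 3.17 CPM, each highest and apart from the group. Lama3 was at 62.0 CPM in liver control G. Col8a1 was at 9.76 CPM in lung GOF E.

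In 2 members the GOF effect differed between lung and liver by an interaction test with the replicate block (edgeR). The adjusted p was 0.0274 for Col6a2, which was lower in GOF in 4 of 4 liver pairs and higher in 4 of 4 lung pairs. For Lama1 it was 0.0242, with 0 reads in liver control and 61 in liver GOF, so its liver effect could not be downward. Lama1 passed the filter on low counts only through lung, where it was higher in GOF in 4 of 4 pairs.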

How the results depend on the processing

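The counts of members called between genotypes depended on the pairing of libraries. In liver, 0 members were called without the replicate block, 3 with it by edgeR and 9 with it by DESeq2, and 0 to 3 when 1 library or 1 pair was left out. In lung, 0 were called by edgeR with or without the block, 1 by DESeq2 without it and 3 with it, and 0 to 1 with a library or pair left out. For the difference between tissues, the counts were 0 without the block, 2 with it, 1 by DESeq2 without and 3 with it, and 0 to 3 with a library or pair left out. Lung control against liver control stayed within 1.5 times of 24 members under each alternative run, with 21 to 26 when a library was left out. The relation to fibroblast markers passed for 0 members in either tissue, for 2 in liver with RLE scaling, for 0 to 1 in liver with a library left out, and for 0 to 7 in lung, where leaving out lung control E gave 7. Marker lists chosen after seeing the data (hepatocyte in liver, alveolar epithelial in lung) gave 0. The cause of these differences was not tested. Of 100 genotype fold changes of named members, 43 changed sign in some setting, and 1 of those, Col18a1 in liver, passed the threshold in some setting.

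On the log2 scale, Lamb2 in lung became -0.0092 with RLE scaling and with DESeq2, -0.0062 without a filter on low counts, -0.013 with the replicate block and -0.021 with the block in DESeq2. With the block in DESeq2, Col15a1 in lung became -0.0039 and Col12a1 in lung -0.0084. Col4a4 in lung became 0.039 with the block and 0.031 with the block in DESeq2. For the difference between tissues with the block in edgeR and in DESeq2, Col4a2 became 0.0018 and 0.0082, and Col18a1 -0.089 and -0.088, and Sparc became 0.0016 with upper quartile scaling. The other values that changed sign did so when a library or a pair was left out, and their lowest and highest values follow. In liver they were Col12a1 (-2.06 to 1.96), Col15a1 (-1.14 to 0.030), Col1a1 (-1.10 to 0.37), Col3a1 (-1.22 to 0.25), Col4a4 (-0.59 to 0.27), Col8a1 (-0.28 to 0.20) and Lamc1 (-0.054 to 0.11). In liver the others were Col14a1 (-0.12 to 0.084), Col18a1 (-0.25 to 0.68), Col1a2 (-1.34 to 0.37), Col4a3 (-0.67 to 0.060), Col5a1 (-0.74 to 0.18) and Lama3 (-0.10 to 0.41). In lung they were Col12a1 (-0.25 to 0.35), Col15a1 (-0.18 to 0.24), Col4a3 (-0.33 to 0.28), Col5a2 (-0.071 to 0.28), Hspg2 (-0.038 to 0.18), Lama3 (-0.37 to 0.21), Lamb1 (-0.040 to 0.53), Lamb3 (-0.064 to 0.38) and Nid2 (-0.44 to 0.043). In lung the others were Col13a1 (-0.57 to 0.80), Col18a1 (-0.057 to 0.54), Col4a4 (-0.32 to 0.23), Col8a1 (-1.17 to 0.15), Lama2 (-0.023 to 0.46), Lama5 (-0.16 to 0.15), Lamb2 (-0.11 to 0.092) and Nid1 (-0.053 to 0.16). For the difference between tissues they were Col12a1 (-1.20 to 2.22), Col4a1 (-0.12 to 0.18), Col4a4 (-0.33 to 0.54), Col8a1 (-1.13 to 0.19), Lamb1 (-0.78 to 0.23), Nid1 (-0.22 to 0.044) and Sparc (-0.25 to 0.21). For that difference the others were Col18a1 (-0.42 to 0.59), Col4a2 (-0.21 to 0.17), Col5a2 (-0.39 to 0.064), Lama3 (-0.54 to 0.10), Lamc1 (-0.011 to 0.20) and Nid2 (-0.021 to 0.47). Depth limited members with few reads in 1 group (Lama1, Lamb3, Col28a1), which have wide counting intervals or lower bounds in place of a fold change.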

Other observations

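Nidogen-1 and nidogen-2, which link the laminin and collagen IV networks, had a ratio that varied between libraries. The ratio of Nid1 to Nid2, per kilobase, was 11.1 ± 3.35 in control liver and 6.30 ± 2.37 in control lung (mean ± SD, n = 4 each), 16.5 ± 4.31 in GOF liver and 7.47 ± 2.57 in GOF lung. The ranges of the control groups overlapped, with 7.88 to 14.9 in liver and 3.91 to 9.10 in lung, and no test was made of the ratios. Col1a1 and Col1a2, which combine in a fixed proportion in collagen I, had a ratio per kilobase between 0.965 and 2.04 over the 16 libraries.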
